A study of Mus musculus with 9 samples.

Results

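The genes followed here were 8 genes listed by symbol, out of 24346 gene symbols with a value in every sample. They were the triggering receptors expressed on myeloid cells Trem1, Trem2 and Trem3, their signalling adaptor Tyrobp, and Gpnmb, Lgals3, Cd9 and Lpl, which are named among the markers of lipid-associated macrophages. All 8 were found under their listed symbols, and all 8 passed the filter on low values. Levels were measured by RNA sequencing in macrophages sorted from lungs of wild type C57BL/6 mice at postnatal week 10, with 3 samples in each of 3 groups. Ctrl-AM were alveolar macrophages (AMs) of vehicle control mice, which were given PBS. Tumor-AM were AMs of mice that carried an orthotopic tumor of Lewis lung carcinoma (LLC) cells, a lung cancer line of the same strain, marked with tdTomato and injected through the chest wall into the left lung in PBS and Matrigel. Tumor-macrophage were the tumor-associated macrophages (TAMs) of such tumor-bearing mice. The sort took CD45+ autofluorescent cells, with AMs as Siglec-F+ cells and TAMs as Siglec-F- F4/80+ CD11b+ cells, from lungs digested without perfusion, so Siglecf itself defined the gates. No gene was altered in any of the 3 groups. The tumor came from 1 cell line, and control mice were bred apart from tumor-bearing mice, so the effect of the tumor and that of the colony cannot be told apart. The sources used here gave 3 mice per group and did not say whether an AM and a TAM sample came from the same mouse, and where they did not come from separate mice the p-values measure only the spread between these samples.

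TREM receptors sit in the membrane of myeloid cells and have short cytoplasmic tails without a signalling motif of their own. They pair with TYROBP, also called DAP12, whose immunoreceptor tyrosine-based activation motif (ITAM) recruits the kinase SYK. TREM1 is known as an amplifier of inflammatory signals, and TREM2 as a receptor for lipids and lipoproteins in microglia and in macrophages of fat, plaque and tumor tissue. Lipid-associated macrophages are named after a set of genes for lipid uptake, lysosomal breakdown and membrane proteins that includes Trem2, Gpnmb, Lgals3, Cd9 and Lpl. AMs clear surfactant lipid from the air spaces and carry several of these genes in health.

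Because the receptors signal through a shared adaptor, the coding segments that hold the paired charges are shown first. They are 81 bases of each GENCODE transcript on GRCm38, read 5′ to 3′ on the sense strand. Each holds the most hydrophobic stretch of the protein, searched past its first codons, with flanking codons added on both sides. For these proteins that stretch is the membrane-spanning segment. Capitals mark the charged codon nearest the middle of the stretch, AAG for lysine in the receptors and GAC for aspartate in the adaptor. These are codons 214 (Trem1), 183 (Trem2), 149 (Trem3) and 52 (Tyrobp). Further charged codons in the flanks are not marked. In the fifth line, codons 92 to 106 of Tyrobp, capitals mark the tyrosine and leucine codons of the ITAM.
Trem1: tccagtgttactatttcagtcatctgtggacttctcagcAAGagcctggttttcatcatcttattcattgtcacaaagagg
Trem2: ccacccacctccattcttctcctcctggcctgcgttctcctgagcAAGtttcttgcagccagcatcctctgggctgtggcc
Trem3: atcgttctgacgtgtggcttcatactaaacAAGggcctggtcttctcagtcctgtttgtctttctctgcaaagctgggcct
Tyrobp: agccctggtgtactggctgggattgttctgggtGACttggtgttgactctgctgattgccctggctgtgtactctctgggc
Tyrobp ITAM: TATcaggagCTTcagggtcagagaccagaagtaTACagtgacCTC

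The 3 receptor genes lie on the plus strand within 121 kb of chromosome 17 in GRCm38 (mm10, the build of the files). Trem1 (ENSMUSG00000042265) spans chr17:48232768-48246924, Trem3 (ENSMUSG00000041754) chr17:48247777-48258841 and Trem2 (ENSMUSG00000023992) chr17:48346401-48354147. The adaptor and the other genes lie elsewhere: Tyrobp at chr7:30413760-30417585, Gpnmb at chr6:49036546-49070929, Lgals3 at chr14:47367751-47386160 and Lpl at chr8:68880491-68907448, all on the plus strand, and Cd9 at chr6:125460266-125494791 on the minus strand. In 7 of the 8 genes no 75-base window of the transcript occurred in another annotated gene, and in Lpl 1.36% of windows did. Trem1 overlaps a pseudogene and Cd9 overlaps 2 noncoding genes on the opposite strand, and the use of strand in the counting was not stated, so reads of those partners cannot be told apart from reads of Trem1 and Cd9.

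Promoter windows are shown for Trem2 and Gpnmb, whose levels rose together, and for Trem1, whose level went the other way between AMs and TAMs. They are the 250 bases before the RefSeq transcription start on GRCm38.p6, on the plus strand, at chr17:48346151-48346400 for Trem2, chr6:49036268-49036517 for Gpnmb and chr17:48232489-48232738 for Trem1. Capitals mark matches to the motifs searched.
Trem2: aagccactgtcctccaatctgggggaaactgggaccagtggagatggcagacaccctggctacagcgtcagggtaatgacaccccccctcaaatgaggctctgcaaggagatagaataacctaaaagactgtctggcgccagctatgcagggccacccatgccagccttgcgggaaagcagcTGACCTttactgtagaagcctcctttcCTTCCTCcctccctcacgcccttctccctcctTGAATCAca
Gpnmb: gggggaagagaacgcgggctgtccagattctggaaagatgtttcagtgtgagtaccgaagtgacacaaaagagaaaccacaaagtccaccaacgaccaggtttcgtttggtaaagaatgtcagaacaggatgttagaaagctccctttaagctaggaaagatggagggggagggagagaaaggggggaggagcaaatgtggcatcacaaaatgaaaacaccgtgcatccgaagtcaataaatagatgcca
Trem1: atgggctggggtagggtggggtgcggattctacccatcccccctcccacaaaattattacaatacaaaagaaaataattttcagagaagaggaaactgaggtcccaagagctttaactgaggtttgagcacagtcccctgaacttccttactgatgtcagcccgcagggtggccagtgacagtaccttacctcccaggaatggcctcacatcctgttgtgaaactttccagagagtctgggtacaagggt
RefSeq windows from 250 bases before to 50 bases after the start were matched by symbol for 5 of the 8 genes, Trem1, Trem2, Gpnmb, Lgals3 and Cd9, and not for Trem3, Tyrobp and Lpl. The motifs, on both strands, were CACGTG (E-box), TCACATG (M-box), GAGGAAG (PU.1), TGANTCA (AP-1), AGGTCA (nuclear receptor element) and GGGANTTCC (NF-κB), and none of them contains another. Trem2 held 3 matches in its window, AGGTCA on the opposite strand 68 bases before the start, GAGGAAG on the opposite strand 41 bases before it and TGANTCA 9 bases before it. Gpnmb held TGANTCA 8 bases after its start, and Trem1, Lgals3 and Cd9 held none of the 6. Of 32851 promoter windows, 16.3% held AGGTCA, 13.6% GAGGAAG, 7.81% TGANTCA, 7.15% CACGTG, 3.99% TCACATG and 1.68% GGGANTTCC, so these matches describe the letters of the windows only.

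Values were deposited as FPKM (read fragments divided by transcript length and by the library's mapped total). Estimated depth was about 10100000 to 12900000 reads per sample, and all 9 samples had 9876 to 10187 genes at an FPKM of at least 1. The labels were checked against cell type markers. The summed FPKM of 12 AM markers ran from 31406 to 36689 for Ctrl-AM, from 26524 to 42824 for Tumor-AM and from 287 to 591 for TAMs, and that of 10 markers of monocyte-derived macrophages from 346 to 416, from 713 to 1021 and from 16111 to 17018. In the AM groups single genes made up most of these sums. Among the AM markers, Chil3 alone was 23048 to 28521 FPKM for Ctrl-AM and 20425 to 36468 for Tumor-AM. Among the monocyte-derived markers, Cd14 alone was 313 to 375 and 629 to 869. Neutrophils are also known to express Trem1, and the sums of their markers were 146 to 175 for Ctrl-AM, 151 to 214 for Tumor-AM and 95.8 to 145 for TAMs. Eosinophil, platelet and endothelial marker sums were under 10 in every sample, and dendritic cell and lymphocyte sums were at most 56.4 and 38.1, both in TAMs. Between groups, genes were compared with limma on log2(FPKM + 1), 10686 genes were tested, and a call means an adjusted p below 0.05 over all of them. Folds below are ratios of mean FPKM, while log2 changes with their standard errors (SE) are on the log2(FPKM + 1) scale, which understates changes of low genes. In bulk samples, fewer cells that express a gene and less RNA per cell cannot be told apart. The comparisons share samples, since Tumor-AM and Ctrl-AM each enter 2 of the 3.

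In AMs of tumor-bearing mice, Trem2, Gpnmb and Trem1 rose, by 2.75-fold, 1.86-fold and 1.54-fold, and the adaptor Tyrobp did not pass the test. Of the 8 genes, 3 were called higher in Tumor-AM and the other 5 were not called (limma adjusted p from 0.5 to 0.978), where 7.11% of all genes tested were called higher and 3.18% lower. For the same 3 genes the groups did not overlap, as for 32.3% of all genes. In TAMs against Tumor-AM, Trem2 and Gpnmb were higher again, while Trem1, Trem3, Cd9 and Lpl were lower. That made 2 of 8 called higher and 4 lower, against a background of 24.2% and 24.4%, and 6 of 8 without overlap against 55.3%. In TAMs against Ctrl-AM the counts were also 2 higher and 4 lower, against 27.7% and 27.1%, and 6 of 8 did not overlap against 62.3%. Tyrobp and Lgals3 passed the test in none of the 3 comparisons under this scaling. The number called higher in TAMs was thus near the background share. The background itself depended on scaling. In Tumor-AM against Ctrl-AM, 760 of all genes were called higher and 340 lower, but 623 and 443 under quantile normalization and 477 and 830 when FPKM were rescaled to TPM, in which every library has the same sum. TPM moved the median log2 change of all genes to -0.11 in this comparison and to -0.22 between TAMs and Ctrl-AM, where 2193 were then called higher and 4529 lower, against 2960 and 2900.

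**Figure D1:**
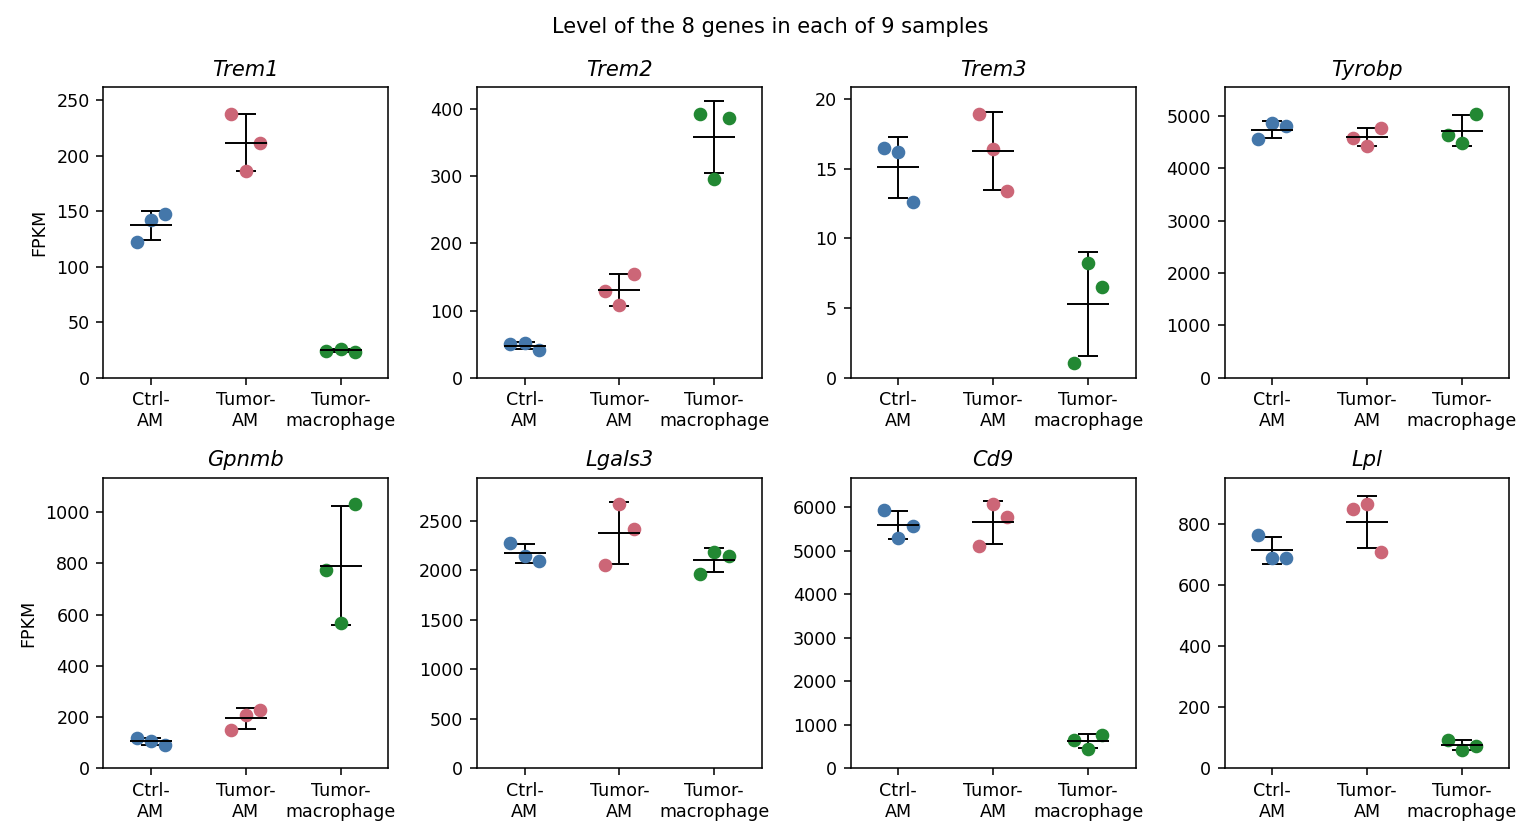
Level (FPKM, linear axis from 0) of each of the 8 genes in the 3 samples of Ctrl-AM, Tumor-AM and Tumor-macrophage (TAMs), with points for samples and bars for mean ± SD (n = 3). Trem2 and Gpnmb step up from Ctrl-AM to Tumor-AM to TAMs, Trem1 peaks in Tumor-AM at a mean of 212, Cd9 and Lpl are low in TAMs, and Tyrobp overlaps between groups on this scale.

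Trem2 had its lowest level in Ctrl-AM and its highest in TAMs. Its FPKM was 49.6, 51.7 and 41.3 in the 3 Ctrl-AM samples, 129, 108 and 155 in Tumor-AM and 393, 296 and 386 in TAMs. The group means were 47.5 ± 5.52, 131 ± 23.6 and 358 ± 53.9 (SD, n = 3 each), and no value of one group fell within the range of another. In rank of mean FPKM among 24346 genes, Trem2 moved from 1825 in Ctrl-AM to 754 in Tumor-AM and 281 in TAMs. The log2 change was 1.43 ± 0.15 (SE, limma adjusted p = 0.000487) from Ctrl-AM to Tumor-AM, larger in absolute size than that of 98.7% of genes tested. From Tumor-AM to TAMs it was 1.45 ± 0.15 (limma adjusted p = 1.53e-05), and from Ctrl-AM to TAMs 2.88 ± 0.15 (limma adjusted p = 5.8e-08). Both steps were thus of about the same size, 2.75-fold each. In Ctrl-AM, Trem2 rested on an estimated 580 to 720 reads per sample, and in TAMs on 3400 to 4800.

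Trem1 behaved differently. Its FPKM was 122, 142 and 147 for Ctrl-AM, 238, 186 and 211 for Tumor-AM and 24.4, 26.1 and 23.3 for TAMs. Every Tumor-AM sample lay above every Ctrl-AM sample, and every TAM sample lay far below both. Means were 137 ± 13.4, 212 ± 25.8 and 24.6 ± 1.38 (SD, n = 3 each). Trem1 rose by 0.62 ± 0.10 on the log2 scale in Tumor-AM (limma adjusted p = 0.00449). In TAMs it was 8.61-fold below Tumor-AM, a log2 change of -3.05 ± 0.10 (limma adjusted p = 3.71e-09), and 5.57-fold below Ctrl-AM, a log2 change of -2.43 ± 0.10 (limma adjusted p = 1.34e-08). Trem1 is best known from neutrophils and monocytes. Of 10 neutrophil markers 6 were tested, of which S100a9 and Retnlg were called lower in Tumor-AM and the other 4 were not called. Among those 4, S100a8, the most abundant neutrophil marker, ran from 71.7 to 81.4 FPKM for Ctrl-AM. It ran higher for Tumor-AM, from 86.0 to 144. In TAMs against Tumor-AM, Csf3r was called higher and S100a8, Cxcr2 and Mmp8 lower, the last by -2.64 ± 0.16 (limma adjusted p = 2.32e-07). Csf3r, the receptor for the neutrophil growth factor G-CSF, ran from 10.49 to 13.997 FPKM for Ctrl-AM, 7.39 to 16.1 for Tumor-AM and 29.8 to 42.1 for TAMs. The granule gene Camp reached at most 0.221 and Ngp at most 1.798 in any library. The part of neutrophil RNA in the Trem1 values was not tested.

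Trem3, a mouse TREM receptor with no functional human counterpart, had the lowest mean of Trem1, Trem2 and Trem3 in each group. Its FPKM was 16.5, 16.2 and 12.6 for Ctrl-AM, 18.9, 16.4 and 13.4 for Tumor-AM and 1.07, 8.23 and 6.48 for TAMs. The AM groups overlapped, and the difference between them was 0.10 ± 0.44 (SE, limma adjusted p = 0.926), with its sign turned when values were rescaled to TPM (-0.03). TAMs lay below both AM groups without overlap. Trem3 fell by 1.71 ± 0.44 on the log2 scale from Tumor-AM to TAMs (limma adjusted p = 0.00862) and by 1.61 ± 0.44 from Ctrl-AM (limma adjusted p = 0.0104). The TAM samples differed among themselves with a coefficient of variation of 71.0%. Tumor-macrophage 1 had an estimated 11 reads for this gene and the others 87 and 74. Without that sample the changes were -1.04 (limma adjusted p = 0.000862) and -0.94 (limma adjusted p = 0.00135), and with all genes tested and no filter they did not pass the threshold (limma adjusted p = 0.0798 and 0.0845).

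Between Tumor-AM and TAMs the summed receptor mRNA overlapped, while its make-up did not. Summed Trem1, Trem2 and Trem3 FPKM was 199.8 ± 11.3 for Ctrl-AM, 359 ± 41.9 for Tumor-AM and 388 ± 49.98 for TAMs (SD, n = 3 each). Trem1 made up 68.6% of that sum for Ctrl-AM, 59.1% for Tumor-AM and 6.44% for TAMs. Trem2 made up 23.8%, 36.3% and 92.1%. The ratio of Trem2 to Trem1 within a sample was 0.407, 0.363 and 0.281 for Ctrl-AM, 0.543, 0.578 and 0.733 for Tumor-AM and 16.1, 11.4 and 16.5 for TAMs. A ratio within a sample does not depend on a scaling factor of the library, and the 3 groups did not overlap in it. For the log2 scale 1 was added to each FPKM, so that form is not fully free of library scaling. In it the ratio differed by 0.81 between Tumor-AM and Ctrl-AM, by 4.503 between TAMs and Tumor-AM and by 5.31 between TAMs and Ctrl-AM. With 0.1 added instead, the differences were 0.82, 4.56 and 5.38. The exact permutation test (two-sided) gave p = 0.1 for each of the 3 pairs, the smallest p that 3 samples against 3 allow.

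**Figure D2:**
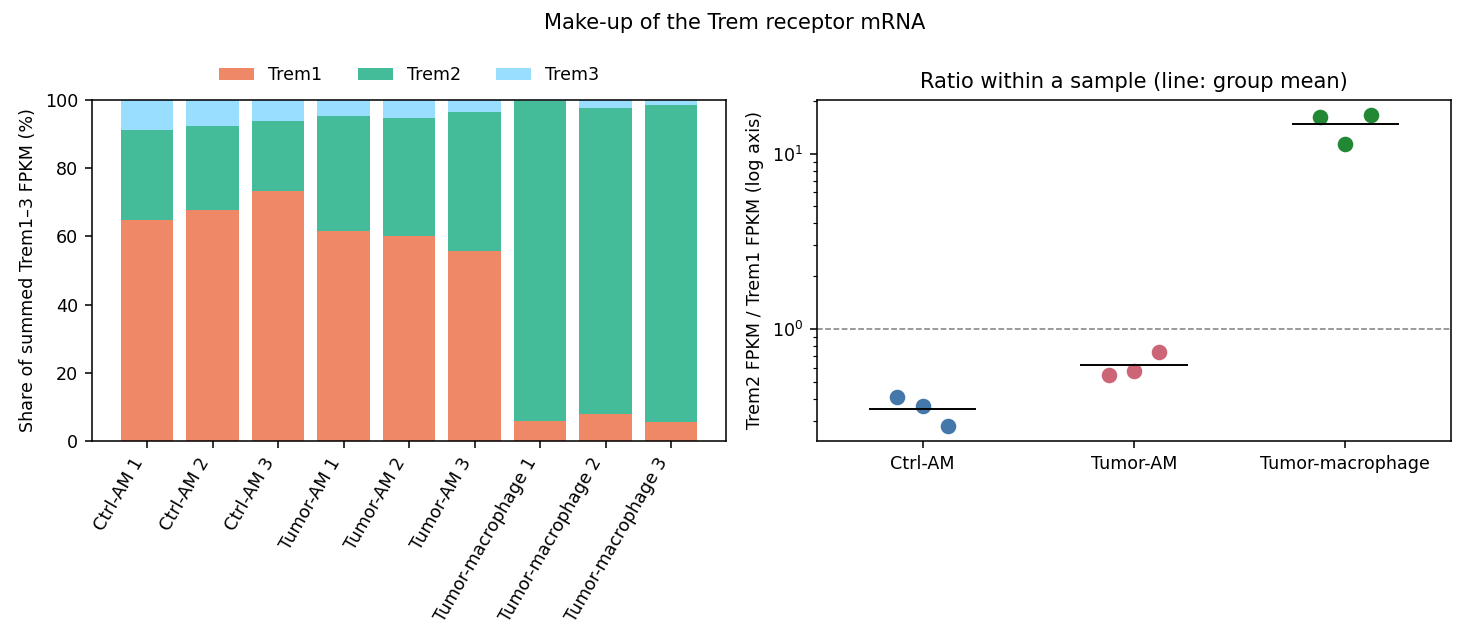
Left, share (%) of the summed FPKM of Trem1, Trem2 and Trem3 taken by each receptor, 1 bar per sample. Right, Trem2 FPKM divided by Trem1 FPKM in each sample on a log axis, with a line at the group mean and a dashed line at 1. Trem1 is the larger part in all 6 AM samples, and Trem2 takes 89.6% to 93.9% in the TAM samples.

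Other genes of the Trem cluster on chromosome 17 moved in both directions. The order along the chromosome is Trem1, Trem3, Treml4, Treml2, B430306N03Rik, Trem2 and Treml1. Treml4, which lies next to Trem3, had a mean FPKM of 42.6 for Ctrl-AM, 38.1 for Tumor-AM and 14.8 for TAMs, and fell by 1.26 ± 0.21 in log2 units from Tumor-AM to TAMs (limma adjusted p = 0.00058). B430306N03Rik, the gene beside Trem2, was named after its values were seen. Its mean FPKM was 0.436, 2.45 and 10.6, a rise of 1.28 ± 0.16 in Tumor-AM (limma adjusted p = 0.00134) and of 1.74 ± 0.16 more in TAMs (limma adjusted p = 7.59e-06). Treml2 and Treml1 did not pass the filter on low values, with mean FPKM of at most 1.68 and 0.205. Of the 6 Trem and Trem-like genes listed, 4 were tested, and between Tumor-AM and TAMs 1 was called higher (Trem2) and 3 lower (Trem1, Trem3 and Treml4), where 24.2% and 24.4% of all genes were. A530064D06Rik, which lies before Trem1 and was also named after its values were seen, was higher in TAMs as well, at a mean FPKM of 1.42, 1.37 and 10.6 (2.28 ± 0.19 against Tumor-AM, limma adjusted p = 2.42e-06). With no filter, Treml2 was also called higher in TAMs than in Tumor-AM (1.06, limma adjusted p = 0.0118). The genes share a locus and are not independent, and a link between position and direction was not tested.

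**Figure D3:**
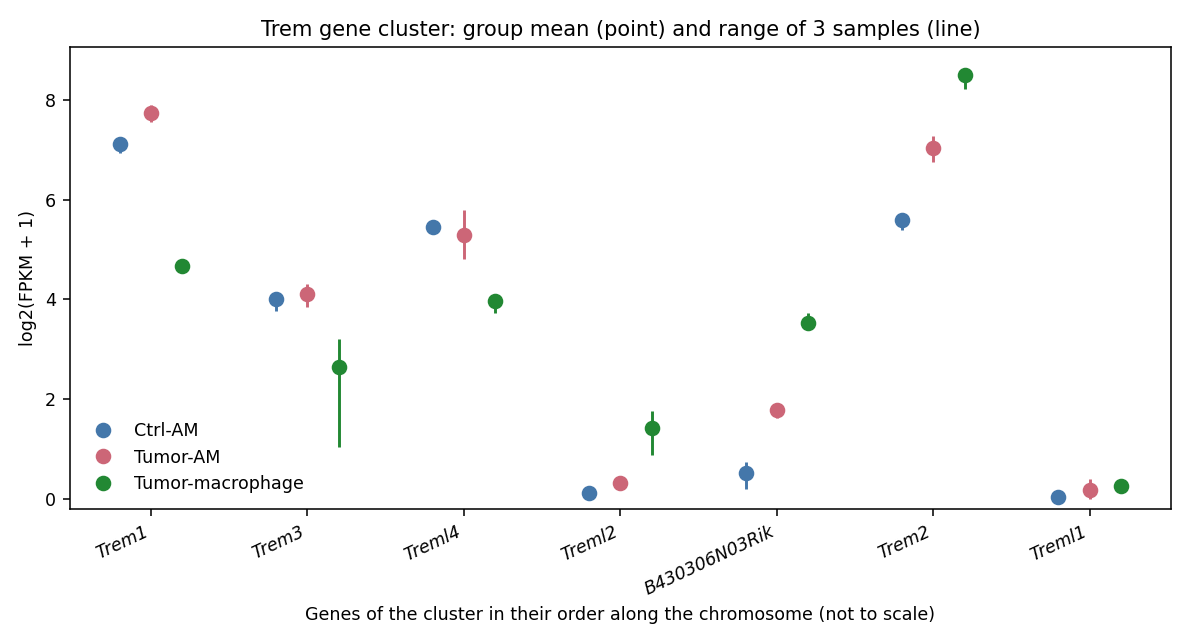
log2(FPKM + 1) of 7 genes of the Trem cluster in their order along the chromosome, with points at the group mean FPKM and lines over the range of 3 samples, in blue for Ctrl-AM, red for Tumor-AM and green for TAMs. TAMs are lowest for Trem1, Trem3 and Treml4 and highest for the other 4.

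Tyrobp, the adaptor that carries the ITAM shown above, was among the most abundant mRNAs in every group. It ranked 9 for Ctrl-AM, 11 for Tumor-AM and 15 for TAMs. FPKM was 4547, 4868 and 4796 for Ctrl-AM, 4582, 4429 and 4763 for Tumor-AM and 4623, 4479 and 5039 for TAMs, and all 3 groups overlapped. Means were 4737 ± 168, 4591 ± 167 and 4714 ± 291 (SD, n = 3 each). The log2 change was -0.05 ± 0.08 in Tumor-AM against Ctrl-AM (SE, limma adjusted p = 0.785), 0.04 ± 0.08 in TAMs against Tumor-AM (0.728) and -0.01 ± 0.08 in TAMs against Ctrl-AM (0.939). These values depended on scaling. Under quantile normalization Tyrobp was called lower in TAMs, by -0.61 against Tumor-AM and -0.82 against Ctrl-AM, and under TPM it was called lower against Ctrl-AM (-0.24) and was at -0.06 against Tumor-AM, with no call. Per unit of length, Tyrobp mRNA stood at 23.7 ± 0.54 times the summed Trem mRNA for Ctrl-AM, 12.9 ± 1.23 times for Tumor-AM and 12.2 ± 1.25 times for TAMs (SD, n = 3 each). The adaptor mRNA therefore exceeded that of these receptors in every sample, by 11.04 to 24.2 times.

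Other receptors listed for a link to TYROBP, by pairing with it or only through signalling (such as Csf1r and Itgb2), moved in both directions. With the 3 Trem genes left out, 9 were listed and 8 tested, of which 2 were called higher in Tumor-AM and the other 6 were not called (median log2 change 0.27, against 0.01 over all genes, of which 7.11% were called higher). Cd300lb, a receptor of the CD300 family, rose from a mean FPKM of 12.8 to 19.8 (log2 change 0.59 ± 0.10, limma adjusted p = 0.00541). Itgb2, the integrin beta chain CD18, rose from 672 to 1002 (0.58 ± 0.07, limma adjusted p = 0.000643). In TAMs against Tumor-AM, 5 were called higher and 3 lower (median 1.00, against 0.00), beside 24.2% and 24.4% of all genes. Csf1r, the receptor for the macrophage growth factor CSF1, was higher by 2.01 ± 0.15 (limma adjusted p = 1.53e-06) at a mean FPKM of 532 in TAMs. Cd300ld was higher by 1.66 ± 0.09 (limma adjusted p = 1.36e-07). Itgb2, which had risen in Tumor-AM, was lower in TAMs at a mean FPKM of 502.

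Downstream of the adaptor, 16 further genes for ITAM signalling were all tested. In Tumor-AM, 3 were called higher and the other 13 were not called (median log2 change 0.13), beside 7.11% of all genes called higher. Under TPM the median was -0.00 and Card9 was called lower (-0.38). Malt1, a scaffold of the CARD9 complex, rose from a mean FPKM of 11.5 to 20.5 (0.76 ± 0.14, limma adjusted p = 0.00714). In TAMs against Tumor-AM, 10 were called higher and 4 lower (median 0.45), beside 24.2% and 24.4% of all genes, so the number lower was near the background. Lat2, a linker that is phosphorylated downstream of SYK, stood at a mean FPKM of 3.06 for Ctrl-AM, 9.95 for Tumor-AM and 202 for TAMs, the last step being 4.25 ± 0.25 (limma adjusted p = 1.74e-07). Inpp5d, the inhibitory lipid phosphatase SHIP1, was higher in TAMs by 1.01 ± 0.09 (limma adjusted p = 5.46e-06). Card9 was lower in TAMs, with a log2 change of -0.87 ± 0.09 (limma adjusted p = 9.69e-06), at a mean FPKM of 14.7 against 27.7 in Ctrl-AM.

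Of 7 listed ligands and sheddases of TREM2 and TREM1, 6 were tested. In Tumor-AM 2 were called higher and the other 4 were not called, beside 7.11% of all genes called higher. In TAMs against Tumor-AM, where 24.2% of all genes were called higher, 5 were higher and 1 was not called. Under TPM 4 were higher in TAMs, and Hmgb1 was not called. Apoe, an apolipoprotein that binds TREM2, had a mean FPKM of 126 for Ctrl-AM, 452 for Tumor-AM and 27853 for TAMs. It rose by 1.86 ± 0.29 in Tumor-AM (limma adjusted p = 0.00363) and stood 5.96 ± 0.29 higher still in TAMs (limma adjusted p = 5.82e-08). Adam10 and Adam17 encode proteases that release the extracellular part of TREM2. Adam10 rose by 0.47 ± 0.08 in Tumor-AM (limma adjusted p = 0.00376), and Adam17 was higher in TAMs than in Tumor-AM by 0.86 ± 0.11 (limma adjusted p = 6.42e-05).

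Gpnmb, a heavily glycosylated membrane protein of lysosome-rich macrophages, went the same way as Trem2. Its FPKM was 119, 105 and 89.2 for Ctrl-AM, 149.5, 209 and 226 for Tumor-AM and 775, 566 and 1030.2 for TAMs. The 3 groups did not overlap, but within them Gpnmb spread more widely than Trem2 in all 3, with coefficients of variation of 14.4%, 20.6% and 29.4% against 11.6%, 18.1% and 15.0%. Means were 105 ± 15.1, 195 ± 40.1 and 790.3 ± 233 (SD, n = 3 each). The log2 change in Tumor-AM was 0.88 ± 0.21 (SE, limma adjusted p = 0.0279). This call was lost when all genes were tested without a filter (limma adjusted p = 0.184), and without Ctrl-AM 1, 2 or 3 or without Tumor-AM 2 or 3 (limma adjusted p from 0.0538 to 0.108), while the direction held. In TAMs Gpnmb stood above Tumor-AM by 1.99 ± 0.21 (limma adjusted p = 2.15e-05) and above Ctrl-AM by 2.87 ± 0.21 (limma adjusted p = 9.79e-07). Over the 9 samples, which are 3 groups, Pearson's r between Gpnmb and Trem2 on the log2 scale was 0.96 as a description.

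Gpnmb transcription is known to follow the MITF and TFE family of lysosomal transcription factors. In Tumor-AM, Tfec changed by -0.26 ± 0.10 (limma adjusted p = 0.13), the largest of the 4 changes, and was called lower under TPM (-0.40). In TAMs against Tumor-AM, Tfe3 was higher by 0.61 ± 0.11 (limma adjusted p = 0.000719), while Tfec, at a mean FPKM of 48.8 against 13.5, was lower by -1.77 ± 0.10 (limma adjusted p = 1.38e-07) and Tfeb by -0.48 ± 0.09 (limma adjusted p = 0.00153). Of the binding partners of GPNMB, Sdc4 (syndecan 4) was higher in TAMs than in Tumor-AM by 4.01 ± 0.27 (limma adjusted p = 5.9e-07) and Cd44 lower by -1.61 ± 0.09 (limma adjusted p = 1.36e-07).

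Markers of monocyte-derived macrophages moved with Trem2 and Gpnmb in Tumor-AM. Of the 10 listed, 9 were called higher in Tumor-AM (8 under TPM), beside 7.11% of all genes. The median log2 change was 0.01 over all genes and 1.11 for the 10 markers. Their levels stayed far from those of TAMs. C1qa, C1qb and C1qc, the chains of complement C1q, had mean FPKM of 9.79, 47.6 and 20.7 in Tumor-AM, which was 0.451%, 0.692% and 0.457% of their level in TAMs. Aif1 stood at 0.619% of TAMs, and Cd14, which AMs also express, at 58.6%. Fibroblast markers moved too, with a summed FPKM of 3.61 to 6.33 for Ctrl-AM and 12.7 to 83.8 for Tumor-AM. Of the 3 tested, 2 were called higher, beside the same 7.11% of all genes. The sum of lung epithelial markers was 125 to 262 for Ctrl-AM and 59.2 to 112 for Tumor-AM. Of the 12 AM markers, 2 were called lower in Tumor-AM and the other 10 were not called (median log2 change -0.36). Over all genes 3.18% were called lower. Under quantile normalization 3 of the 12 were called lower, beside 443 of 10686 genes tested. Under TPM 4 were (median -0.50), beside 830 of 11187. The rise from Ctrl-AM to Tumor-AM amounted to 23.2% of the TAM level for Trem2 and 11.4% for Gpnmb. For C1qa, C1qb, C1qc, Cx3cr1, Ms4a7 and Aif1 the same rise was between 0.233% and 0.647% of the TAM level, and for Ly6c2 and Ccr2 it was 4.58% and 6.78%. The part of monocyte-derived or other cells in the rise of Trem2 and Gpnmb was not tested.

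Lgals3, which encodes the galectin Mac-2, was abundant in all 3 groups. It ranked 22 in both AM groups and 35 in TAMs. FPKM was 2276, 2145 and 2088 for Ctrl-AM, 2048, 2664 and 2410.2 for Tumor-AM and 1962, 2186 and 2146 for TAMs, with overlap between all groups. The log2 change was 0.12 ± 0.10 in Tumor-AM (SE, limma adjusted p = 0.505), with the sign turned under quantile normalization (-0.10) and TPM (-0.02). In TAMs it was -0.17 ± 0.10 against Tumor-AM (0.184) and -0.05 ± 0.10 against Ctrl-AM (0.702). Both of these were called lower under quantile normalization (-0.57 and -0.67) and under TPM (-0.27 and -0.29), and the first also without Tumor-AM 1 (-0.27). Of the other galectin genes, Lgals3bp, whose product binds galectin-3, rose from a mean FPKM of 95.1 in Ctrl-AM to 181 in Tumor-AM (0.91 ± 0.08, limma adjusted p = 0.000211) and was 498 in TAMs. Lgals4 fell from 12.1 to 6.10 (-0.91 ± 0.19, limma adjusted p = 0.0133) and was 0.642 in TAMs. Lgals9 was 122, 158 and 298, and its rise in Tumor-AM (0.38 ± 0.08, limma adjusted p = 0.0173) was not called under TPM.

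Cd9, a tetraspanin of the cell surface, separated AMs from TAMs. It ranked 8 for Ctrl-AM and 9 for Tumor-AM, above Tyrobp, and 138 in TAMs. FPKM was 5938, 5304 and 5562 for Ctrl-AM, 5121, 6073 and 5779 for Tumor-AM and 642, 455 and 777 for TAMs. The AM groups overlapped (log2 change 0.01 ± 0.16, limma adjusted p = 0.978, with the sign turned to -0.16 under quantile normalization and -0.13 under TPM). TAMs lay 9.06-fold below Tumor-AM, at -3.21 ± 0.16 on the log2 scale (limma adjusted p = 7.7e-08), and 8.97-fold below Ctrl-AM. Other tetraspanins moved in both directions. With Cd9 left out, 15 of 16 tetraspanin and partner genes were tested, and in TAMs against Tumor-AM 8 were called higher and 3 lower (median log2 change 0.17). Over all genes 24.2% and 24.4% were, so the number lower was near the background. Cd63, a tetraspanin of late endosomes and lysosomes, was 325 for Ctrl-AM, 941 for Tumor-AM and 2152 for TAMs in mean FPKM, a rise of 1.52 ± 0.23 in Tumor-AM (limma adjusted p = 0.00277). Tspan3 was 3.997, 9.78 and 106, with a difference of 3.32 ± 0.20 between TAMs and Tumor-AM (limma adjusted p = 2.37e-07), and Tspan4 was 7.84, 13.4 and 74.2.

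Lpl, the lipase that frees fatty acids from lipoprotein triglycerides, had the largest fitted fall of the 8 genes between AMs and TAMs. FPKM was 763, 687 and 689 for Ctrl-AM, 847, 864 and 709 for Tumor-AM and 92.2, 59.3 and 73.1 for TAMs. The AM groups overlapped, with a difference of 0.17 ± 0.14 in log2 units (limma adjusted p = 0.5). TAMs lay 10.8-fold below Tumor-AM, a log2 change of -3.43 ± 0.14 (limma adjusted p = 1.59e-08), and 9.52-fold below Ctrl-AM. The ratio of Gpnmb to Lpl within a sample, at 0.129 to 0.156 for Ctrl-AM and 0.176 to 0.319 for Tumor-AM, was 8.41 to 14.1 in TAMs. Of 14 genes listed for maturation, anchoring, cofactors and inhibitors of LPL, 10 were tested, and in TAMs against Tumor-AM 2 were called higher and 5 lower (median log2 change -0.43). Over all genes 24.2% and 24.4% were, so the number higher was near the background. Angptl4, which inactivates LPL, went with Lpl, at a mean FPKM of 214 for Ctrl-AM, 198 for Tumor-AM and 8.62 for TAMs (-4.37 ± 0.08, limma adjusted p = 9.37e-11). Apoc2, the cofactor that LPL needs, went against it, at 3.89, 9.52 and 256 (4.66 ± 0.30, limma adjusted p = 3.99e-07).

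**Figure D4:**
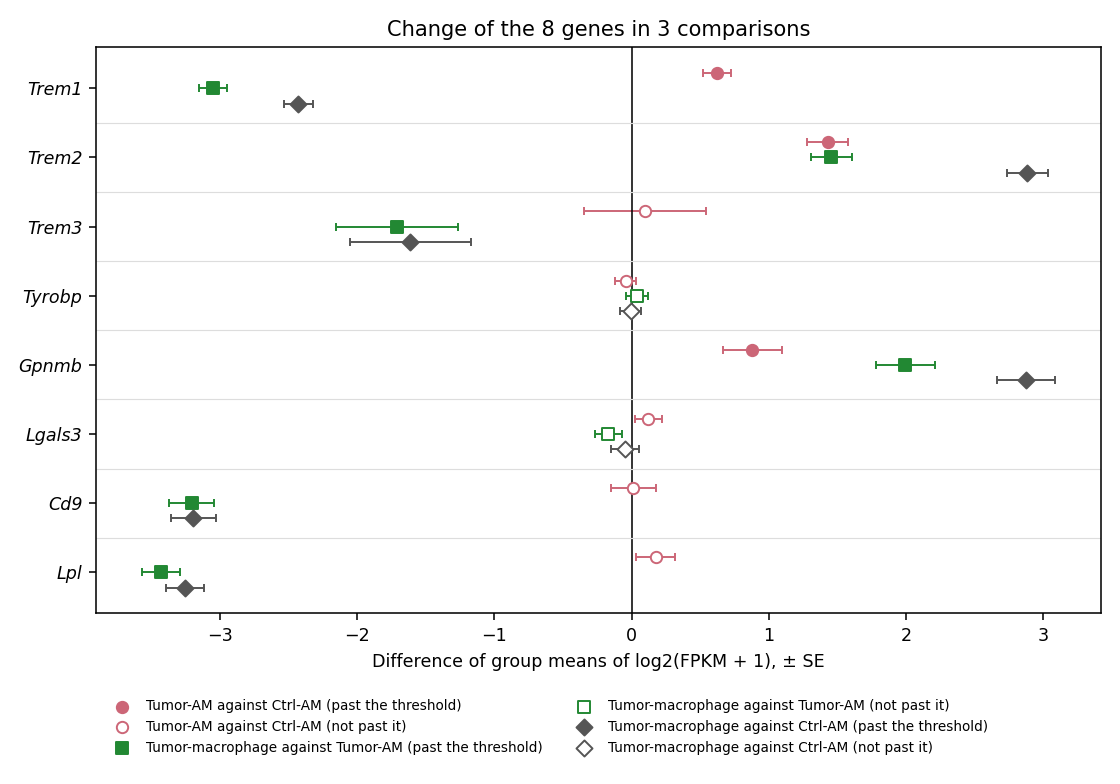
Change of the 8 genes in the 3 comparisons, as the difference of group means of log2(FPKM + 1) with bars for ± SE, filled where past the threshold (limma adjusted p below 0.05) and open where not. Trem2 and Gpnmb lie above 0 in all 3 comparisons, Trem1 lies above 0 in Tumor-AM against Ctrl-AM (0.62) and below it in both comparisons with TAMs, and Cd9 and Lpl lie at about -3.2 or below in both.

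Within the TAM group, Tumor-macrophage 2 had the lowest Trem2, Gpnmb, Cd9, Lpl and Tyrobp and the highest Trem1 and Trem3 of the 3 samples. Its AM markers pointed both ways. Of the 12, Marco, Mrc1, Siglec1 and Chil3 were highest in this sample, Chil3 at 430.4 FPKM against 128 and 150.2, while Siglecf, Ear1, Ear2 and Itgax were lowest, Ear2 at 8.59 against 21.1 and 32.6. Of the epithelial genes, Sftpc, at 64.1 against 6.19 and 10.8, and Cdh1 were highest in it, and Scgb1a1, Ager and Epcam lowest. The part of AM or epithelial RNA in these values was not tested. Without this sample the log2 change between TAMs and Tumor-AM was 2.21 for Gpnmb and -2.12 for Trem3, and both calls held.

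The 8 genes belong to larger programmes, and the wider lipid-associated macrophage signature was counted as a list of 20 genes, 5 of which are among the 8. All 20 were tested. In Tumor-AM against Ctrl-AM 11 were called higher and 1 lower, beside 7.11% and 3.18% of all genes. The median of their log2 changes was 0.48, and that of all genes 0.01. Without the 5 shared genes these were 9 and 1 of 15, with a median of 0.56. The one called lower, named after its value was seen, was Plin2, a lipid droplet coat protein (-0.29 ± 0.07, limma adjusted p = 0.0309). Cd36, also named after its value was seen, had a larger negative change (-0.69) that was not called. Under TPM Cd36 was called lower (-0.83). Spp1, which encodes osteopontin, rose most, from a mean FPKM of 753 to 3744 (2.30 ± 0.13, limma adjusted p = 1.7e-05). Cd63 and Apoe, described above, rose as well, and Lgmn, a lysosomal protease, rose by 0.67 ± 0.09 (limma adjusted p = 0.00215). Under quantile normalization 9 of the 20 were called higher and 1 lower, and under TPM 10 and 2.

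Between TAMs and Tumor-AM, 9 of the 20 genes were called higher and 8 lower, beside 24.2% and 24.4% of all genes. The median of their log2 changes was 0.09, which turned to -0.15 under quantile normalization and -0.01 under TPM, with 10 called lower in each. Apoe, Lgmn and the lysosomal protease gene Ctsb were higher, Lgmn by 2.53 ± 0.09 (limma adjusted p = 7.07e-09) and Ctsb by 2.03 ± 0.08 (limma adjusted p = 1.12e-08). Fabp4, a fatty acid carrier abundant in AMs, was lower by -2.03 ± 0.19 (limma adjusted p = 7.85e-06), with Cd9 and Lpl. Against Ctrl-AM, TAMs had 11 higher and 7 lower (median 0.78), beside 27.7% and 27.1% of all genes.

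**Figure D5:**
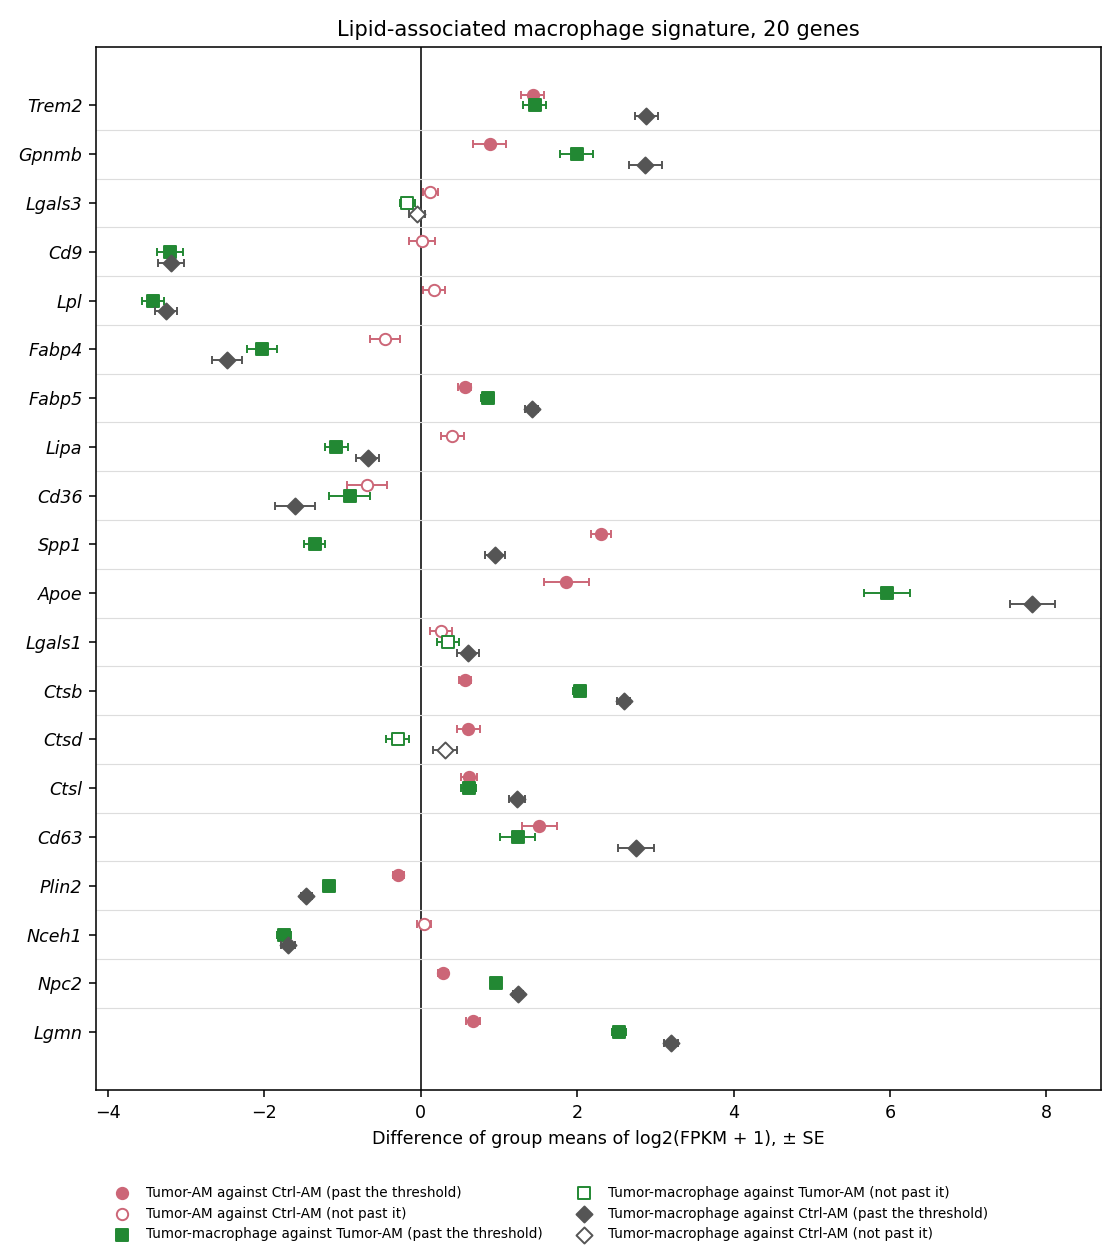
Change of the 20 genes of the lipid-associated macrophage signature in the 3 comparisons, as the difference of group means of log2(FPKM + 1) with bars for ± SE, filled where past the threshold (limma adjusted p below 0.05) and open where not. In Tumor-AM against Ctrl-AM 11 genes are called higher and 1 lower, and in TAMs against Tumor-AM 9 are called higher and 8 lower.

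The genes most like each of the 8 over the 9 samples were listed by Pearson's r of log2(FPKM + 1) among 5968 genes whose mean reached 10 FPKM in some group. Since the 9 samples form 3 groups, r mostly reflects the order of the groups and is a description. For Trem2 they were Tcn2, Got1 and H2-Q5 (r from 0.994 to 0.995), and for Gpnmb Rnf149, Lamp2 and Mcfd2 (0.989 to 0.994). For Trem1 they were Aldh3b1, Fgr and Parvg (0.995 to 0.997). Cd9 went with Nceh1, Atp6v0d2 and Pdlim1 (0.998 to 0.999), and Lpl with Nedd9, Cyb561 and Scap (0.997 to 0.998). Between Cd9 and Lpl themselves r was 0.992, and between Trem1 and each of them 0.963 and 0.977. Trem3 had Tsta3, Psmg2 and Dld (0.958 to 0.973) and Lgals3 had Prdx1, Tnfaip1 and Pdia6 (0.919 to 0.950). For Tyrobp, which varied little, they were Mir1957b, Rcbtb2 and Akna (0.813 to 0.856).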

How the data were processed

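RNA was measured in 9 samples, 3 each of Ctrl-AM, Tumor-AM and Tumor-macrophage. Libraries were made with SMART-Seq HT and Nextera chemistry and read as single ends of 75 bases. Per the labels, the authors aligned reads to mm10 with TopHat2 2.1.1 and Bowtie2 and computed FPKM with Cuffdiff 2.2.1, and deposited 1 FPKM table per sample. The annotation, the use of strand and the treatment of reads with several matches were not given in the sources used here. The FPKM values were used as deposited. Reads per sample were estimated from the most common low value of FPKM times length in genes with a single annotated transcript. That value was searched within a preset range. Relative depth came from the ratios of low values (FPKM below 0.3) between samples. Of these ratios, 70.0% to 73.7% fell on a grid of whole reads within a tolerance of 0.01 (natural log). On a displaced grid 6.15% to 8.35% did. The steps between low values were too incomplete for a count test, and the estimated reads cover counting error only.

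Groups came from the sample labels. The fit used limma 3.58.1 in R 4.3.3 on log2(FPKM + 1) over all 9 samples, for the 10686 genes that reached an FPKM of 1 in 3 or more samples, with two-sided tests, Benjamini-Hochberg adjustment over all genes tested and a threshold of 0.05. It was tested on simulated data. Results were recomputed with a pseudocount of 0.1, without the filter, with a filter at 5, with quantile normalization, rescaling to TPM, median-ratio scaling, a constant prior variance, only the compared groups, a 2-fold requirement, a replicate block, and without each of the samples. The text names the 8 genes, up to 4 genes of each list with the largest change among those past the threshold, at a mean of at least 10 FPKM in the higher group and without overlap, the 3 genes of the most similar pattern, and markers. Genes outside that rule are said to be named after their values were seen. The members and lists were chosen with earlier results of these data known. Positions and coding sequences were read from the GENCODE annotation of GRCm38, and promoters from RefSeq. Values of some list genes are not reported here.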

Additional observations from a re-analysis of the deposited data

How the results depend on the processing

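Across the 19 alternatives, Trem2 kept its call in Tumor-AM (log2 change 1.30 to 1.56), and Trem1 lost its call only when a 2-fold change was also required. Of the 8 genes, 3 were called in Tumor-AM against Ctrl-AM, and 1 with the 2-fold requirement. Over all genes this comparison gave 1100 calls, 505 without a filter, 208 with the 2-fold requirement and 538 to 1254 leaving out 1 sample. The 2-fold requirement left 1827 of 5191 calls between TAMs and Tumor-AM and 2150 of 5860 between TAMs and Ctrl-AM. Small changes turned sign. In Tumor-AM against Ctrl-AM these were Lgals3 (-0.096 with quantile normalization, -0.017 with TPM), Cd9 (-0.16 and -0.13, and -0.041 to 0.082 leaving out 1 sample) and Trem3 (-0.034 with TPM, and -0.021 to 0.22 leaving out 1 sample). Tyrobp turned between TAMs and Tumor-AM (-0.61 with quantile normalization, -0.061 with TPM, and -0.012 to 0.073 leaving out 1 sample). Against Ctrl-AM it ran from -0.057 to 0.028 leaving out 1 sample. The cause was not tested. With the replicate block the 3 comparisons gave 938, 5069 and 5772 calls, and no call of the 8 genes changed. Samples with the same number correlated by -0.0615 to 0.159 in their deviations from group means, over all pairs of groups. Between Tumor-AM and TAMs, which could share a mouse, r was 0.026, 0.096 and 0.109 for the same number. For different numbers it ran from -0.101 to 0.006 between these groups. The main fit did not treat the numbers as pairs, and whether they mark the same mouse was not tested. Trem3 in TAMs rested on an estimated 11 to 87 reads, in libraries of similar depth, and the cause of that spread was not tested.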
